A study of Mus musculus with 66 samples.

Results

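The microRNAs (miRNAs) examined here are mmu-miR-16-5p, mmu-miR-15a-5p, mmu-miR-15b-5p, mmu-miR-15b-3p, mmu-miR-195a-5p, mmu-miR-322-5p and mmu-miR-322-3p. They were taken by name from a table of plasma miRNAs, in which all 7 were present among 1826 miRNA rows. Small RNA of plasma was sequenced in libraries with unique molecular indices (UMIs), random tags that let each captured molecule be counted once. Plasma came from 13 male C3H mice, of which 8 had hepatocellular carcinoma (HCC) and 5 were non-HCC, and every label places these mice at >12 months after radiation. The HCC group joins tumors that arose spontaneously with tumors induced by radiation, which the labels do not separate. The label was thus not read as irradiation of every mouse, and which of the 13 mice were irradiated is not known here. Blood was drawn by cardiac puncture at necropsy, and the plasma was centrifuged repeatedly and screened for hemolysis. A second table holds 53 columns of UMI counts from F2 mice, the second generation of a cross of BALB/c females with C3H males, of both sexes and labelled HCC. All F2 mice had been irradiated, and their blood was drawn from the tail vein at 1, 6, 12 or 18 months after radiation, with 15, 15, 13 and 10 samples, so the columns are repeated samples of fewer mice. The F2 columns were not matched to a mouse or a month, and they are described with no test.

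A miRNA is cut from a hairpin transcript, and its 5p and 3p forms are the opposite strands of the hairpin stem. Loaded on an Argonaute protein, it binds messenger RNAs mainly through its seed, and miRNAs with a shared seed are grouped as a family. The miR-15/16 family is known for repressing messenger RNAs of cyclins and of BCL2, and in humans a locus encoding miR-15a and miR-16 is often deleted in chronic lymphocytic leukemia. miR-16 is abundant in red blood cells and other blood cells, and it is widely measured as a reference miRNA in plasma.

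The mature sequences are shown because the shared seed is what joins 5 of the miRNAs and sets the other 2 apart. They are RefSeq sequences of the GRCm38.p6 build, 5′ to 3′, with bases 2 to 8 (the seed) in capitals.
mmu-miR-16-5p: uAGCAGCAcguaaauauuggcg
mmu-miR-195a-5p: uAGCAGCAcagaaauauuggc
mmu-miR-15a-5p: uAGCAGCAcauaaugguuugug
mmu-miR-15b-5p: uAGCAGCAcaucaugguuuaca
mmu-miR-322-5p: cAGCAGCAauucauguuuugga
mmu-miR-15b-3p: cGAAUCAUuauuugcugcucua
mmu-miR-322-3p: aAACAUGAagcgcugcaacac

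The 5 miRNAs with the AGCAGCA seed differ in the bases that follow it. Positions are counted from 1 at the 5′ end, and in each substitution the base of the reference miRNA stands first and that of the miRNA compared with it last. With miR-16-5p as the reference, miR-195a-5p matched it at 19 of 21 positions and differed by G10A and U11G alone. miR-15a-5p matched miR-16-5p at 16 of 22 positions, miR-15b-5p at 14 of 22 and miR-322-5p at 12 of 22. miR-15a-5p and miR-15b-5p matched each other at 18 of 22 positions, the differences, with miR-15a-5p as the reference, being A12C, G20A, U21C and G22A. The 3p forms miR-15b-3p and miR-322-3p have other seeds and entered by name. Of the 1826 rows, 1563 matched a RefSeq mature sequence by name, and 10 of these have the seed, the other 5 being miR-497a-5p, miR-195b, miR-6342, miR-6353 and miR-6419.

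The genes lie at 4 places in GRCm38. Mir15a (chr14:61632027-61632110, minus strand) lies in an intron and Mir16-1 (chr14:61631880-61631972, minus strand) in an exon of the non-coding gene Dleu2. Mir15b (chr3:69009772-69009835, plus strand) and Mir16-2 (chr3:69009902-69009996, plus strand) lie in introns of Smc4, which encodes a subunit of condensin. Mir195a (chr11:70235042-70235135, plus strand) lies beside Mir497. Mir322 (chrX:53054255-53054349, minus strand) lies beside Mir503 and Mir351, and no other annotated gene covers it.

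Both Mir16 hairpins give the same 5p strand, so UMIs of miR-16-5p could not be assigned to a gene, whereas the 3p strands differ. The hairpins are shown for this reason, with both mature strands in capitals.
Mir16-1: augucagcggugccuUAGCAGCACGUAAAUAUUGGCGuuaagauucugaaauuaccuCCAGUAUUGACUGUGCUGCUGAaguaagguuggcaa
Mir16-2: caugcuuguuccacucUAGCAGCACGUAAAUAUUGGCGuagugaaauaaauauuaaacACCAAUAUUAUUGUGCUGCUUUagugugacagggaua

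Libraries of HCC mice held 9513136 to 14247488 miRNA UMIs and those of non-HCC mice 10467560 to 13962539. The lowest value above 0 in the table is 10, so an entry of 0 can hide up to 9 UMIs, and this touches none of the 7 miRNAs, each of which reached 10 UMIs in 13 of 13 mice. Levels were scaled to the mean UMIs of UniSP2 and UniSP4, synthetic RNAs added before RNA isolation, and this mean ran from 83039 to 469953 among HCC mice and from 182485 to 366298.5 among non-HCC mice. UniSP2 had 165794 to 938898 UMIs in a library and UniSP4 225 to 1008, so the mean follows UniSP2 almost alone. The libraries of HCC mice 1 and 6, 2 and 5, and 3 and 7 resembled each other more than other libraries did. The standard deviation (SD) of the log2 ratio over 253 miRNAs was 0.207 to 0.245 within these pairs, 0.793 to 1.61 in the other 25 pairs of HCC mice and 0.369 to 0.775 between non-HCC mice. The labels number them as separate mice, and they were kept apart on that ground. Counts within the pairs differed by more than counting error, but repeat libraries of 1 animal could do so too, and whether a pair is 1 animal was not tested. With each pair as 1 animal there would be 5 HCC mice in place of 8, and fold changes, ratios, correlations and the share of miR-16-5p were also computed with each pair summed. The permutation tests of mean log2 levels were not repeated in this way and count the libraries of a pair as separate mice.

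miR-16-5p was the most abundant miRNA of the C3H table, with 33836928 UMIs or 21.8% of all miRNA UMIs. It ranked 1 in 9 of 13 mice, and miR-122-5p, the dominant miRNA of hepatocytes, ranked 1 in the other 4. These were HCC mice 1 and 6, and 2 and 5, which are similar pairs. By total UMIs miR-15b-5p ranked 53, miR-15a-5p 81, miR-15b-3p 110, miR-195a-5p 123, miR-322-5p 138 and miR-322-3p 284. miR-16-5p alone made up 97.5% to 98.9% of the UMIs of the 7 miRNAs in a mouse. The order compares UMIs of different sequences, and how efficiently each sequence entered the library was not tested.

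miR-16-5p had 559174 to 3491688 UMIs in HCC mice, with a median of 2193489.5. Non-HCC mice 1 to 5 had 3119207, 3614777, 2921355, 3878330 and 3729957 UMIs. In unscaled UMIs the non-HCC mice thus lay close together. HCC mice 1 and 6, with 678143 and 559174 UMIs, lay far below them, and HCC mice 3 and 7, with 3354007 and 3491688, lay among them. On the spike-in scale HCC mice averaged 20.93 ± 1.21 (SD, n = 8) and the non-HCC group 21.41 ± 0.51 (SD, n = 5) as log2 levels. Of the HCC mice 5 lay below and 2 above all non-HCC mice, so the groups overlapped (exact two-sided permutation test of the means, p = 0.42). The 5 below included HCC mice 3 and 7, at 20.81 and 20.76 against a lowest non-HCC level of 20.96. HCC mice 2 and 5, the 2 above all non-HCC mice, had the 2 lowest spike-in means (87617 and 83039 UMIs) of all libraries.

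miR-15a-5p, the partner of miR-16-1 on chromosome 14, had 1041 to 8803 UMIs in HCC mice, with a median of 5944. Its UMIs in non-HCC mice 1 to 5 were 6801, 14810, 7608, 10604 and 19507. Its log2 level was 12.24 ± 1.52 (SD, n = 8) against 13.12 ± 0.97 (SD, n = 5), with 5 HCC mice below the whole non-HCC group and none above (exact permutation p = 0.27). The lowest HCC mice were again 1 and 6, with 1442 and 1041 UMIs, and non-HCC mouse 5 was the highest of all.

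miR-15b-5p, the partner of miR-16-2 on chromosome 3, had 2927 to 25847 UMIs in HCC mice, with a median of 17768. The non-HCC mice, 1 to 5 in turn, had 22079, 36200, 23053, 28065 and 60554. The log2 level was 13.78 ± 1.58 (SD, n = 8) against 14.65 ± 0.96 (SD, n = 5), again with 5 HCC mice below the whole non-HCC group (exact permutation p = 0.29). The opposite strand of its hairpin, miR-15b-3p, had 622 to 3960 UMIs in HCC mice against 3116 to 8387 in the non-HCC group, and its levels overlapped in the same way (exact permutation p = 0.30 for 8 against 5 mice).

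miR-195a-5p, whose gene sits beside that of miR-497, had 817 to 3162 UMIs in HCC mice, with a median of 2731. Non-HCC mice 1 to 5 had 3022, 4088, 2994, 3905 and 4047 UMIs. As for miR-16-5p, 5 HCC mice lay below and 2 above all non-HCC mice on the spike-in scale, 11.19 ± 1.21 (SD, n = 8) against 11.51 ± 0.55 (SD, n = 5) as log2 levels. Because miR-195a-5p differs from the far more abundant miR-16-5p by G10A and U11G only, its counts are uncertain where counting could mix the sequences, and misassignment of miR-16-5p reads was not tested.

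miR-322-5p, known as the mouse counterpart of human miR-424 and encoded on the X chromosome, had 1020 to 2536 UMIs in HCC mice. Non-HCC mice 1 to 5 had 1449, 2700, 1157, 1745 and 4698 UMIs, a range that covered that of the HCC mice nearly whole. Its log2 level was 10.98 ± 0.99 (SD, n = 8) against 10.71 ± 1.14 (SD, n = 5). miR-322-3p from the same hairpin had 114 to 741 UMIs in HCC mice against 114 to 216 in the non-HCC group. The 741 UMIs belonged to HCC mouse 4, and the next HCC mouse had 274. Its log2 level was 7.91 ± 1.03 (SD, n = 8) against 7.22 ± 0.56 (SD, n = 5), with 4 HCC mice above the whole non-HCC group and none below.

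**Figure D1:**
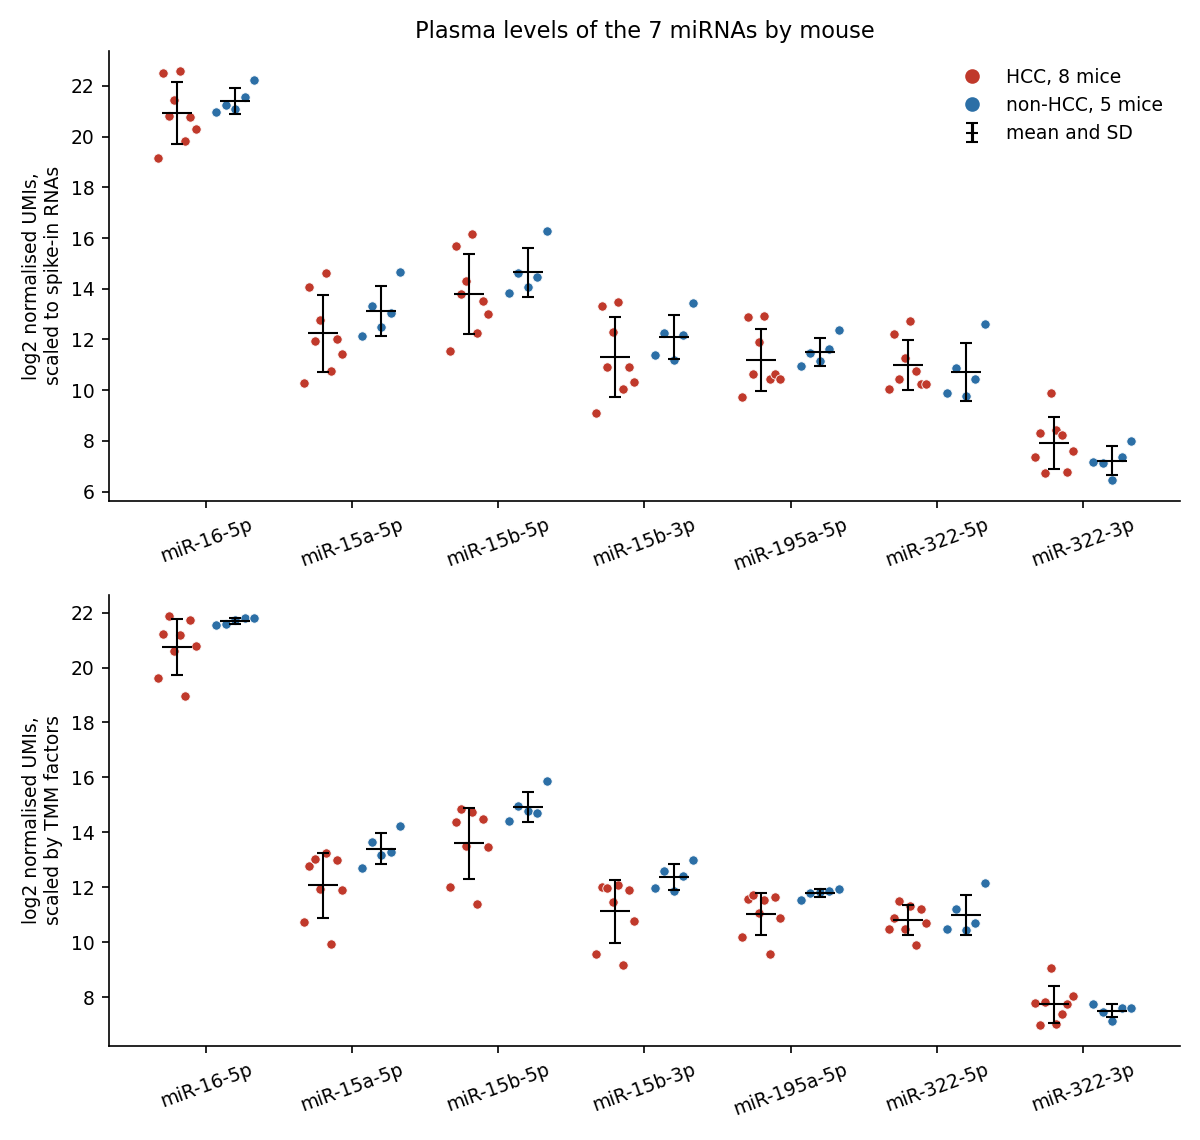
Log2 normalised UMIs of the 7 miRNAs in each C3H mouse, scaled to the spike-in RNAs (upper panel) and by trimmed mean of M-values (TMM) factors (lower panel), with red points for 8 HCC mice, blue points for 5 non-HCC mice and bars for mean and SD. The groups overlap for every miRNA on both scales; for miR-16-5p the HCC mice spread over 1.21 (SD) and the non-HCC mice over 0.51 on the spike-in scale.

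HCC and non-HCC mice were compared over all 1452 miRNAs that reached 10 UMIs in 5 or more mice, by edgeR's quasi-likelihood test with Benjamini-Hochberg adjustment. Of these, 109 or 7.51% passed an adjusted p of 0.05, all of them higher in HCC mice, and 0 of the 7 miRNAs did. The log2 fold change of miR-16-5p was -0.13 ± 0.60 (standard error, SE; adjusted p = 0.963), set against a median of 0.78 over all miRNAs tested. The fold change compares mean counts and so differs from the difference of mean log2 levels given above.

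For miR-15a-5p the log2 fold change was -0.46 ± 0.70 (SE, adjusted p = 0.857) and for miR-15b-5p -0.44 ± 0.71 (SE, adjusted p = 0.870). It was -0.30 ± 0.70 for miR-15b-3p, 0.06 ± 0.62 for miR-195a-5p, 0.18 ± 0.64 for miR-322-5p and 0.96 ± 0.61 for miR-322-3p (SE; edgeR adjusted p from 0.445 to 0.984). The 7 miRNAs had a median of -0.13. The standard errors were larger than the estimates for all but miR-322-3p. Without non-HCC mouse 5, the mouse with the most UMIs of miR-15a-5p, miR-15b-5p and miR-15b-3p, the values became 0.13 for miR-16-5p, 0.14 for miR-15a-5p, 0.24 for miR-15b-5p and 0.19 for miR-15b-3p, so their signs rest on that mouse. For miR-16-5p the sign also turned without HCC mouse 1, to 0.02. Without HCC mouse 4 the value of miR-322-3p fell from 0.96 to 0.46.

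The spike-in mean varied most among HCC mice, and a scale from the miRNAs themselves gave lower values for the family. With trimmed mean of M-values (TMM) factors 139 miRNAs or 9.57% passed, 107 higher (7.37%) and 32 lower (2.20%), against 109 higher and 0 lower on the spike-in scale, and again 0 of the 7 miRNAs. The median over all miRNAs tested was 0.17 with TMM factors. miR-16-5p then stood at -0.69 (edgeR adjusted p = 0.364), miR-15a-5p at -1.09 (0.167), miR-15b-5p at -1.02 (0.234) and miR-15b-3p at -0.999 (0.187). miR-195a-5p and miR-322-5p turned to -0.63 and -0.27, and miR-322-3p stayed above 0 at 0.37.

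In mean log2 levels on the TMM scale, miR-16-5p was lower in HCC mice by 0.95 (exact permutation p = 0.0280), miR-15a-5p by 1.34 (0.0233), miR-15b-5p by 1.33 (0.0326), miR-15b-3p by 1.26 (0.0202) and miR-195a-5p by 0.77 (0.00777). These exact permutation p-values are unadjusted, and 12.7% of all miRNAs tested had one under 0.05 in this direction, against 0.551% on the spike-in scale. They count the libraries of each similar pair as separate mice, and the levels were not tested with each pair summed. HCC mice 1 and 6, such a pair, had the lowest levels of miR-16-5p, miR-15a-5p, miR-15b-5p, miR-15b-3p and miR-195a-5p on the TMM scale. On both scales the groups overlapped for each of the 7 miRNAs, whereas the share of miRNAs with every HCC mouse below every non-HCC mouse was 2% with TMM factors and 0% on the spike-in scale, and the share with every HCC mouse above was 3.72% and 1.52%.

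The share of miRNA UMIs taken by miR-16-5p needs no spike-in. In HCC mice 1 to 8 it was 6.64%, 15.5%, 32.1%, 17.8%, 15.6%, 5.74%, 29.5% and 19.6%. In non-HCC mice 1 to 5 it was 28.6%, 26.1%, 27.9%, 28.7% and 26.7%. The non-HCC mice fell within a narrow band, with 6 HCC mice below it and 2, mice 3 and 7, above it.

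The mean share of miR-16-5p came to 17.8% ± 9.45 (SD, n = 8) among HCC mice against 27.6% ± 1.15 (SD, n = 5) for the non-HCC group, a difference of -9.78 percentage points (exact two-sided permutation test, p = 0.0342). The test passed 0.05 with each similar pair summed (-9.61 points, exact permutation p = 0.0476), but leaving out any mouse other than HCC mouse 3 or 7 gave p between 0.0530 and 0.0646 by the exact permutation test.

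Of the 7 miRNAs, miR-195a-5p was the one whose share of all miRNA UMIs did not overlap between the groups. It took 0.00839% to 0.0276% of the UMIs in HCC mice and 0.0277%, 0.0295%, 0.0286%, 0.0289% and 0.0290% in non-HCC mice 1 to 5, so that 8 of 8 HCC mice lay below the whole non-HCC group, mouse 3 by a small margin. That total includes miR-122-5p, which took 2.20% of it in HCC mouse 3 and 0.211% in non-HCC mouse 1. The non-overlap depends on this total, since HCC mouse 3 does not stay below non-HCC mouse 1 with miR-122-5p left out. Of all miRNAs tested, 2.07% had every HCC mouse below every non-HCC mouse in share and 4.2% every HCC mouse above. The shares of miR-15a-5p and miR-15b-3p lay below the non-HCC range in 5 HCC mice each and that of miR-15b-5p in 7, with none above.

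The share of miR-122-5p moved in the opposite direction, 2.20% to 42.7% in HCC mice against 0.180% to 0.424% in non-HCC mice. HCC mice 1 and 6, with the lowest shares of miR-16-5p, had 41% and 42.7% of miR-122-5p, and HCC mice 3 and 7, with the highest, had 2.20% and 2.39%. With miR-122-5p left out of the total, miR-16-5p took 21.4% ± 8.02 (SD, n = 8) among HCC mice against 27.7% ± 1.15 (SD, n = 5) for the non-HCC group, a difference of -6.22 points that did not pass (exact permutation p = 0.101). HCC mice 1 and 6 remained the lowest on that measure, with 11.3% and 10.0%.

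**Figure D2:**
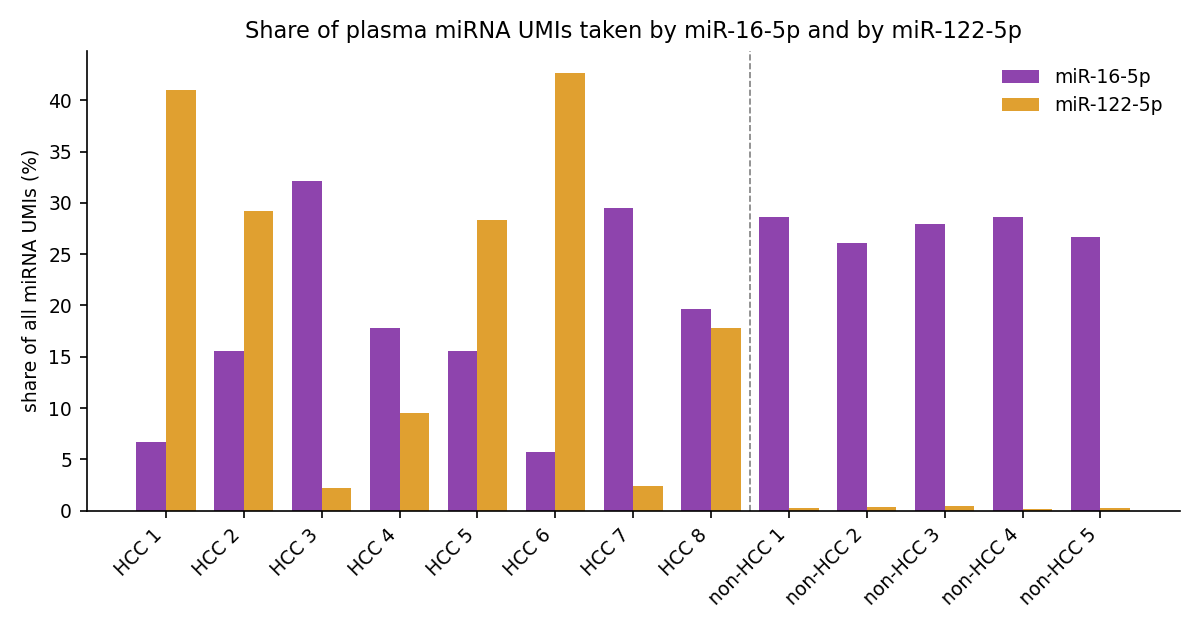
Share of all miRNA UMIs (%) taken by miR-16-5p (purple bars) and by miR-122-5p (yellow bars) in each C3H mouse, with HCC mice left and non-HCC mice right of the dashed line. miR-16-5p stays at 26.1% to 28.7% in non-HCC mice and ranges from 5.74% to 32.1% in HCC mice.

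Ratios of UMIs within a mouse do not depend on a library scale, and 8 of them were compared by exact two-sided permutation over 1287 splits of the mice, with Benjamini-Hochberg adjustment over the 8. For each UMI of miR-15a-5p there were 247 to 537 UMIs of miR-16-5p in HCC mice, with a median of 448. The numbers for non-HCC mice 1 to 5 were 459, 244, 384, 366 and 191. The log2 ratio was higher in HCC mice by 0.40 (exact permutation p = 0.124, adjusted p = 0.332), with 4 of 8 HCC mice above the whole non-HCC group. miR-16-5p over miR-15b-5p behaved alike, at 86.1 to 194.98 in HCC mice against 61.6 to 141 in the non-HCC group, a log2 difference of 0.38 (exact permutation p = 0.169, adjusted p = 0.339). Without non-HCC mouse 5 the differences fell to 0.22 for miR-15a-5p and 0.17 for miR-15b-5p.

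The partners miR-15a-5p and miR-15b-5p kept a nearly fixed ratio to each other although they come from different chromosomes. It was 0.281 to 0.415 in HCC mice and 0.308, 0.409, 0.330, 0.378 and 0.322 in non-HCC mice 1 to 5. The group means differed by -0.02 on the log2 scale (exact permutation p = 0.858, adjusted p = 0.858).

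miR-16-5p over miR-195a-5p was 684 to 1164 in HCC mice against 884 to 1032 in the non-HCC group, a log2 difference of -0.17 (exact permutation p = 0.228, adjusted p = 0.366). The non-HCC mice spread by only 0.089 (SD of the log2 ratio, n = 5) and the HCC mice by 0.297 (SD, n = 8), with 5 HCC mice below and 2 above all non-HCC mice. miR-16-5p over miR-322-5p was 548 to 1473 in HCC mice and 2153, 1339, 2525, 2223 and 794 in non-HCC mice 1 to 5. The log2 difference of -0.76 had an exact permutation p of 0.0420 and an adjusted p of 0.168, and non-HCC mouse 5, at 794, lay among the HCC mice. Without that mouse the difference was -1.03 (exact permutation test, adjusted p = 0.0323).

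Between the strands of a hairpin, miR-15b-5p over miR-15b-3p had a median of 5.71 in HCC mice against 5.36 in the non-HCC group (log2 difference -0.07, exact permutation p = 0.688, adjusted p = 0.787). miR-322-5p over miR-322-3p was lowest in HCC mouse 4, at 2.67, and reached 5.70 to 19.8 among the remaining HCC animals, against 6.71 to 24.1 in non-HCC mice (log2 difference -0.42, exact permutation p = 0.416, adjusted p = 0.555; -0.15 without non-HCC mouse 5). Neither strand ratio differed between the groups beyond the spread between mice.

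The ratio that separated the groups was that of miR-16-5p to miR-451a, the miRNA typical of the red cell lineage. In HCC mice 1 to 8 there were 13.6, 4.76, 9.28, 4.77, 4.62, 13.6, 6.96 and 6.80 UMIs of miR-16-5p for each UMI of miR-451a. For the 5 non-HCC mice the numbers were 4.26, 3.51, 4.25, 4.53 and 3.31. Every HCC mouse lay above every non-HCC mouse, HCC mice 2, 4 and 5 by a small margin. The mean log2 ratio was 2.88 ± 0.65 (SD, n = 8) against 1.98 ± 0.20 (SD, n = 5), which is 1.86-fold higher in HCC mice (exact permutation p = 0.00155, the smallest the design allows, adjusted p = 0.0124). The 8 ratios were chosen with earlier results of these data known, which the adjustment over them does not account for.

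mmu-miR-451a itself was lower in relative terms. It took 2.73% ± 1.46 (SD, n = 8) of the UMIs among HCC mice against 7.02% ± 0.713 (SD, n = 5) for the non-HCC group. On the TMM scale its mean log2 level was lower by 1.85 (unadjusted exact permutation p = 0.00155, each similar pair counted as separate mice). On both measures 8 of 8 HCC mice lay below all non-HCC mice. Of all miRNAs tested, 2.07% showed this separation in share and 2% on the TMM scale. On the TMM scale 12.7% were lower with an unadjusted exact permutation p under 0.05. On the spike-in scale 5 HCC mice lay below (exact permutation p = 0.115), and edgeR called miR-451a on neither scale, at log2 fold changes of -0.64 (adjusted p = 0.737) and, with TMM factors, -1.40 (adjusted p = 0.0916). The mean share of miR-16-5p was lower in HCC mice as well, as given above.

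The ratio of miR-16-5p to another tested miRNA separated the groups in this direction for 2 of 1451 miRNAs (0.138%), the other being miR-200c-3p, and in the opposite direction for 81 (5.58%). With each similar pair summed the log2 difference was 0.82 and the adjusted p 0.0635 by the exact permutation test, the smallest that 5 against 5 libraries and 8 ratios allow.

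Against the other red cell miRNAs the ratios of miR-16-5p overlapped between the groups. Of 8 HCC mice, 3 exceeded the whole non-HCC group for miR-144-3p, 5 for miR-144-5p, 2 for miR-486a-5p and 0 for miR-363-3p. The mean log2 ratio was higher in HCC mice by 0.672 for miR-144-3p, 1.495 for miR-144-5p and 0.216 for miR-486a-5p. For these, 0 HCC mice lay below the whole non-HCC group, and the difference for miR-451a was 0.898. For miR-363-3p the difference was -0.126, with 2 HCC mice below the whole non-HCC group. The differences for miRNAs other than miR-451a were not tested. The list of 5 red cell miRNAs, which comes from earlier work on these data and from which miR-16-5p was left out, had 0 members higher and 0 lower on either scale, with a median log2 fold change of -0.64 on the spike-in scale and -1.40 with TMM factors, against 0.78 and 0.17 over all miRNAs tested. The list holds miR-486a-5p but not miR-486b-5p, which took 10.2% of all miRNA UMIs of the C3H mice against 4.55% for miR-451a. The summed log2 level of the list was 16.5 to 20.8 in HCC mice against 19.5 to 20.9 in the non-HCC group, and its part in the levels of miR-16-5p was not tested. In plasma, fewer cells of a type and less miRNA released per cell cannot be told apart.

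**Figure D3:**
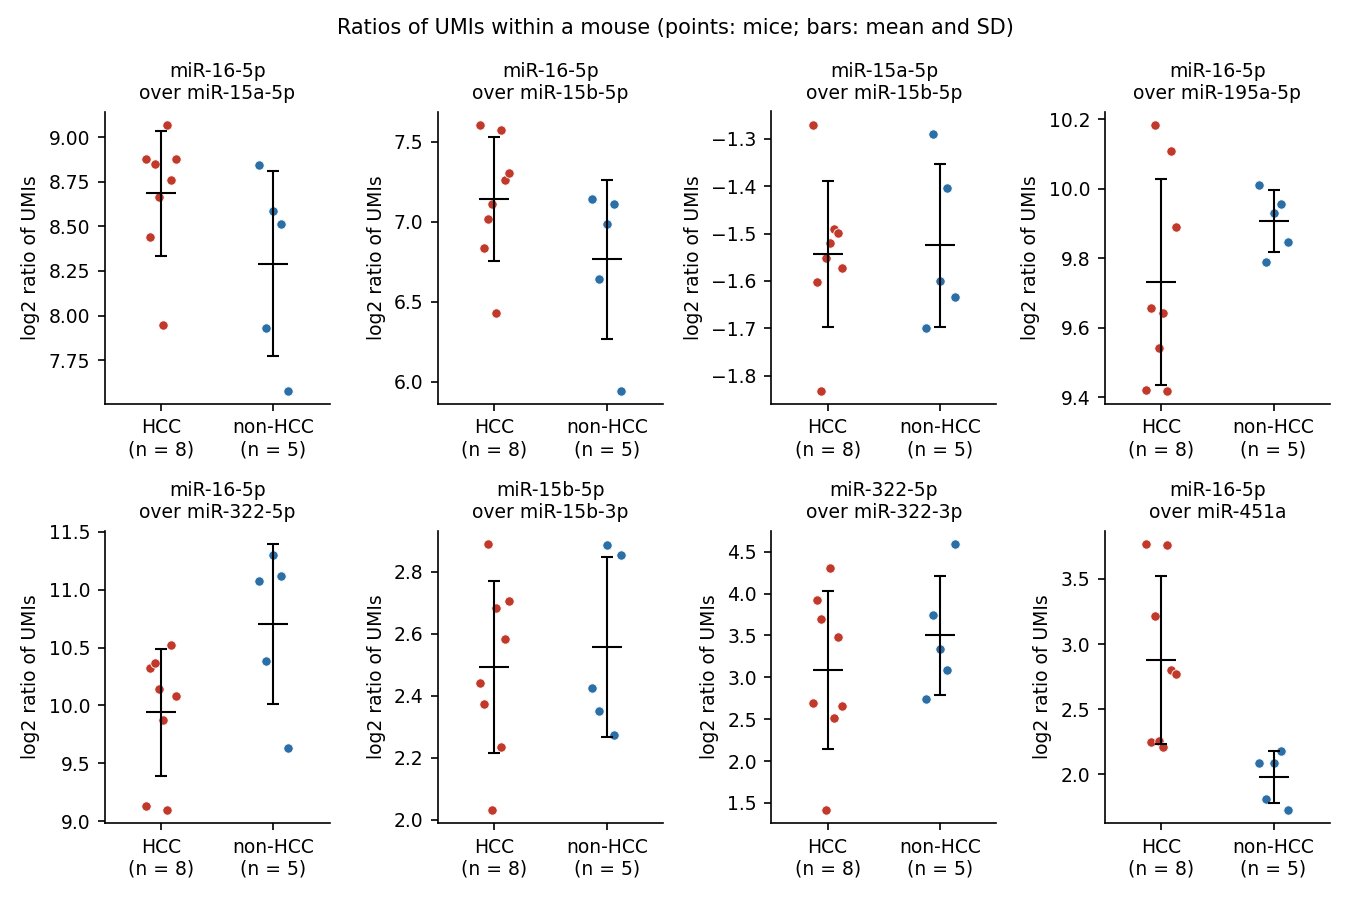
Log2 ratios of UMIs within each C3H mouse for 8 pairs of miRNAs, with red points for 8 HCC mice, blue points for 5 non-HCC mice and bars for mean and SD; the vertical axes differ between panels. miR-16-5p over miR-451a is the pair whose groups do not overlap.

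Liver markers moved with the groups. In the lists taken from earlier work on these data, 4 of 5 liver miRNAs were higher in HCC mice on both scales, with summed log2 levels of 17.9 to 23.8 against 16.1 to 17.5. Over all miRNAs tested, 7.51% were higher on the spike-in scale and 7.37% with TMM factors. Of 5 platelet and leukocyte miRNAs 0 passed on the spike-in scale and 4 were lower with TMM factors, with summed log2 levels of 16.4 to 19.01 against 17.6 to 19.8. With TMM factors 32 miRNAs or 2.20% of all tested were lower, against 8 with each similar pair summed. Of 5 muscle miRNAs 0 passed on either scale, with summed log2 levels of 11.9 to 17.8 in HCC mice against 13.6 to 15.1 in the non-HCC group. None of the listed miRNAs was at 0 in all mice, and the part of these cells in the values of miR-16-5p and its relatives was not tested.

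Across the 13 C3H mice the family members rose and fell with miR-16-5p. On the spike-in scale Pearson's r with miR-16-5p was 0.975 for miR-15a-5p, 0.982 for miR-15b-5p, 0.982 for miR-15b-3p and 0.969 for miR-195a-5p. Spearman's rho for the 4 was 0.962, 0.967, 0.967 and 0.989 (permutation p = 2e-05 for miR-15a-5p and 1e-05 for the others, adjusted p = 3e-05 and 2e-05). Each of these r had a permutation p of 1e-05, the smallest that 100000 resamples give, and an adjusted p of 1.5e-05 over the 6 relations tested. Without HCC mice 1 and 5, the 2 farthest from the median of miR-16-5p, r was 0.962, 0.968, 0.971 and 0.958.

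The relation held within the 8 HCC mice, where r was 0.993 for miR-15a-5p, 0.996 for miR-15b-5p, 0.992 for miR-15b-3p and 0.970 for miR-195a-5p, and with each similar pair summed r was 0.969 to 0.978 over 10 libraries. A shared scale raises all such values, and the median r of miR-16-5p with 692 miRNAs was 0.444 on the spike-in scale and 0.003 with TMM factors. With TMM factors r was 0.943 for miR-15a-5p, 0.954 for miR-15b-5p, 0.933 for miR-15b-3p and 0.981 for miR-195a-5p. For miR-195a-5p, whether misassigned reads of miR-16-5p enter these values was not tested.

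The strands of miR-322 followed miR-16-5p less closely. For miR-322-5p r was 0.762 and rho 0.703 (permutation p = 0.00266 and 0.00917, adjusted p = 0.00319 and 0.0110), and r was 0.645 with TMM factors. For miR-322-3p r was 0.320 and rho 0.429 (permutation p = 0.288 and 0.146), and r was -0.15 with TMM factors, so its relation to miR-16-5p had no stable sign.

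The miRNAs most like miR-16-5p over the 13 mice, by r on the spike-in scale among 692 miRNAs, were miR-16-2-3p (0.993), miR-93-5p (0.990), miR-421-3p (0.989), miR-25-3p (0.989) and miR-3058-3p (0.985). With TMM factors they were miR-16-2-3p (0.997), miR-93-5p (0.986), miR-3058-3p (0.984), miR-222-3p (0.984) and miR-25-3p (0.9807). On that scale miR-195a-5p, which the ranking left out, had 0.9812 and so lay above miR-25-3p. The 3p strand of Mir16-2 was thus the closest on both scales.

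The SD of the log2 ratio of a pair over the mice measures joint movement with no library scale, a low value meaning that the pair moved together. Over all 34453 pairs of 263 miRNAs its median was 1.02 in the C3H mice, and 5% of pairs lay below 0.442. miR-15a-5p with miR-15b-5p had 0.155, and each was the closest of 262 partners to the other. miR-15b-3p had 0.241 with miR-15a-5p and 0.273 with miR-15b-5p. miR-16-5p with miR-195a-5p had 0.249, rank 6 of 262, and whether misassigned reads of miR-16-5p enter this value was not tested. miR-16-5p with miR-15a-5p had 0.449 and with miR-15b-5p 0.457, ranks 38 and 41, whereas with miR-322-5p and miR-322-3p it had 0.695 and 1.12, ranks 72 and 146.

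The closest partner of miR-16-5p on this measure was miR-16-2-3p, at 0.120, against 0.0129 expected from the counting (Poisson) error of both UMI counts. There were 232 to 290 UMIs of miR-16-5p for each UMI of miR-16-2-3p in HCC mice against 228 to 248 in the non-HCC group. The 3p strand of the other hairpin, miR-16-1-3p, had 35 to 300 UMIs in HCC mice against 197 to 618 in the non-HCC group, while miR-16-2-3p had 2006 to 15033 and 12568 to 16496. miR-16-1-3p with miR-16-5p had an SD of 0.645, against 0.0991 from counting error. It moved more closely with miR-15a-5p, its neighbor in Dleu2, at 0.331 (counting error 0.1005), and nearly as closely with miR-15b-5p of chromosome 3, at 0.382.

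miR-15b-5p moved less closely with miR-16-2-3p, its neighbor in Smc4, at 0.452, than with miR-15a-5p, at 0.155, and miR-16-2-3p stood as far from miR-15a-5p, at 0.455, as from that neighbor. None of these 3p strands passed edgeR's test between the groups. Their log2 fold change was -0.31 ± 0.77 for miR-16-1-3p, -0.29 ± 0.60 for miR-16-2-3p, -0.07 ± 0.67 for miR-15a-3p and 0.99 ± 0.69 for miR-195a-3p (SE; adjusted p from 0.507 to 0.983). With TMM factors the values were -1.11, -0.79, -0.68 and 0.03, again with none called. miR-195a-5p did not keep step with its own hairpin or its neighbor, with an SD of 1.08 to miR-195a-3p (counting error 0.196, 20 to 101 UMIs per mouse) and of 0.858 to miR-497a-5p (counting error 0.0883).

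**Figure D4:**
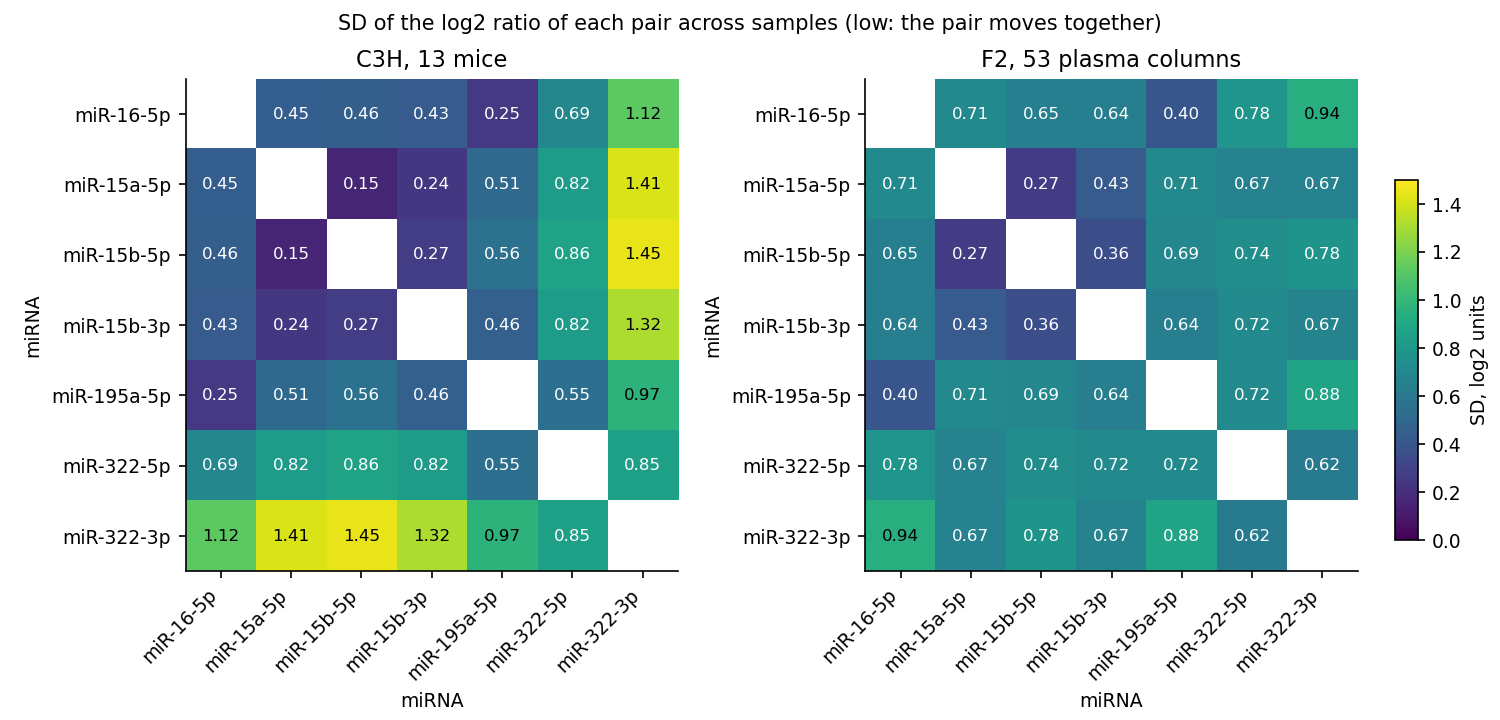
SD (log2 units) of the ratio of UMIs for each pair of the 7 miRNAs, over 13 C3H mice (left) and over 53 F2 columns (right); dark cells mark pairs that move together. miR-15a-5p with miR-15b-5p and miR-16-5p with miR-195a-5p are dark in both panels, as are miR-15b-3p with miR-15a-5p and with miR-15b-5p.

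miR-16-5p was the most abundant miRNA of the F2 columns too, with a different balance within the family. They were shallower, with 205194 to 3020311 miRNA UMIs and a median of 846338. miR-16-5p ranked 1 in 53 of 53 columns and took 15.3% to 47.5% of the UMIs, with a median of 28.8%. The C3H means were 17.8% for HCC and 27.6% for non-HCC mice. miR-122-5p, first in 4 C3H mice, ranked 2 to 22 here and took 0.767% to 23.5%, with a median of 2.31%. All 7 miRNAs reached 10 UMIs in every column, with medians of 473 UMIs for miR-15a-5p, 1865 for miR-15b-5p, 159 for miR-15b-3p, 1018 for miR-195a-5p, 214 for miR-322-5p and 48 for miR-322-3p.

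miR-195a-5p thus stood above miR-15a-5p in the F2 medians, while it stood below it in the C3H ranks. In the F2 columns there were 130 to 459 UMIs of miR-16-5p for each UMI of miR-195a-5p, with a median of 213, against 684 to 1164 in C3H mice. For miR-16-2-3p the F2 ratio was 30.8 to 145, with a median of 61.4, against 228 to 290 in C3H mice. Neither range overlaps that of the C3H mice. For miR-15a-5p the F2 ratio was 185 to 1449, with a median of 558, and for miR-15b-5p it was 56.3 to 377, with a median of 136, ranges that include those of the C3H mice. miR-15a-5p over miR-15b-5p was 0.157 to 0.441 in the F2 columns, with a median of 0.258, below all C3H mice, whose range lay within that of the F2 columns. Strain, sex, age, site of blood draw, depth and sequencing run cannot be told apart between the tables, and the difference was not tested.

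The closest pairs of the C3H mice were among the closer pairs of the F2 columns too. The SD of the log2 ratio of miR-15a-5p to miR-15b-5p was 0.266, against 0.0730 from counting error and a median of 0.841 over all pairs, and each was again the closest of 262 partners to the other. For miR-15b-3p it was 0.430 with miR-15a-5p and 0.359 with miR-15b-5p. miR-16-5p with miR-195a-5p had 0.403, the lowest of the 262 partners of miR-16-5p. Whether misassigned reads of miR-16-5p enter this value was not tested here either. miR-16-5p with miR-15a-5p had 0.711 and with miR-15b-5p 0.648, ranks 56 and 40, and with miR-16-2-3p 0.520, where 5% of all pairs lay below 0.531.

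As a description over 53 repeated samples that share mice and library scale, r of miR-16-5p was 0.744 with miR-15a-5p, 0.793 with miR-15b-5p and 0.908 with miR-195a-5p on the spike-in scale, and 0.629, 0.720 and 0.896 with TMM factors. For miR-15a-5p with miR-15b-5p r was 0.968 and 0.952 on these scales. For miR-322-3p with miR-16-5p r was 0.599 and 0.226.

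**Figure D5:**
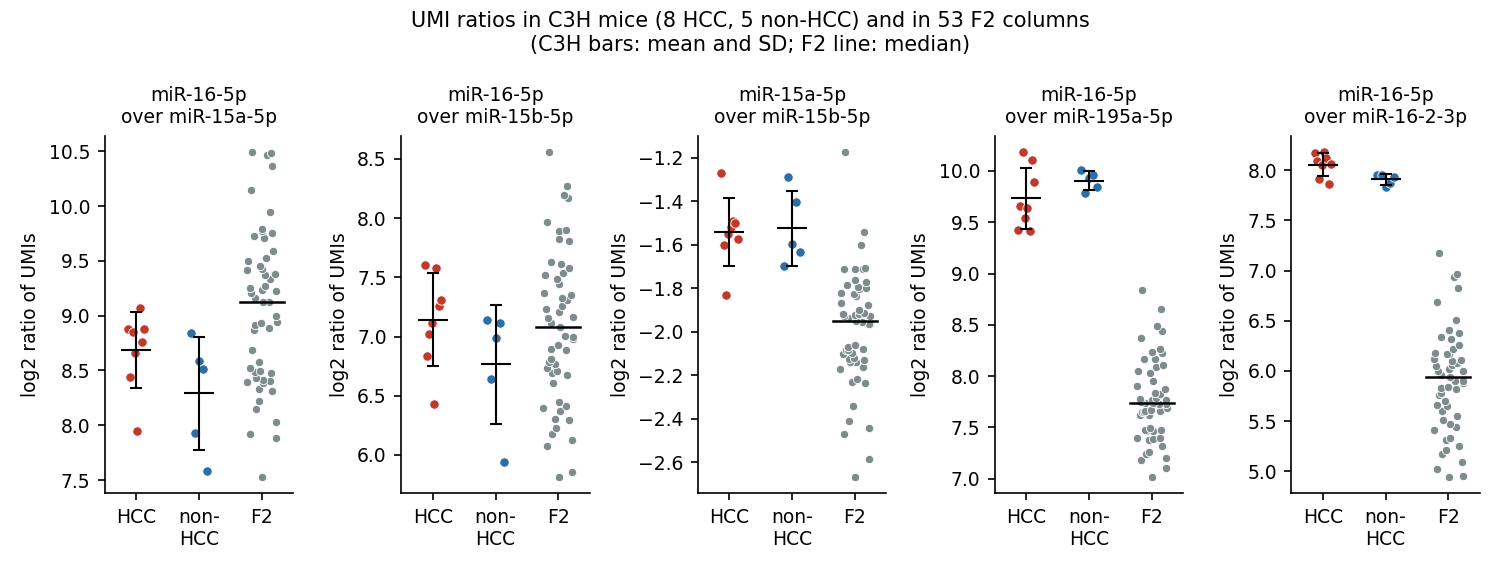
Log2 ratios of UMIs for 5 pairs in 8 HCC (red) and 5 non-HCC (blue) C3H mice, with bars for mean and SD, and in 53 F2 columns (grey), with a line at the median; the vertical axes differ between panels. The F2 columns lie below all C3H mice for miR-16-5p over miR-195a-5p and over miR-16-2-3p.

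The other miRNAs tied to the family by seed or by gene did not pass edgeR's test either. Of 7 miRNAs looked for by name (the other 5 with the seed, and miR-497b and miR-1907, which the seed search did not return) 0 were called on either scale, and only miR-497a-5p was abundant, with 138 to 897 UMIs in HCC mice against 274 to 556 in the non-HCC group. Of 10 strands from genes beside Mir322 and Mir195a (the miR-503, miR-351, miR-542, miR-450 and miR-497a groups) 0 were called on either scale. Their median log2 fold change was 0.85 on the spike-in scale, near the 0.78 of all miRNAs tested, and miR-503-3p had the highest value at 1.26 ± 0.55 (SE, edgeR adjusted p = 0.196). Its log2 level was nonetheless higher in 8 of 8 HCC mice than in every non-HCC mouse on the spike-in scale. The difference of means was 1.14 (unadjusted exact permutation p = 0.00155, each similar pair counted as separate mice). Of all miRNAs tested, 1.52% showed this separation, whereas with TMM factors the groups overlapped for miR-503-3p (exact permutation p = 0.0917).

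miR-103-3p and miR-107-3p carry the letters AGCAGCA shifted by 1 position, so that their seed overlaps that of miR-16-5p in part. On the spike-in scale their log2 fold changes were -0.03 ± 0.67 and -0.33 ± 0.69 (SE; edgeR adjusted p = 0.994 and 0.905), and with TMM factors miR-107-3p, but not miR-103-3p, was called lower, as were 2.20% of all miRNAs tested.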

How the data were processed

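Plasma small RNA was isolated from 50 µl of plasma with UniSP2 and UniSP4 spike-ins and read as single-end reads of 76 nt. The authors aligned the reads with GRCm38, took miRNA names from miRBase 20, counted each UMI once and deposited one table of UMI counts for the C3H mice and one for the F2 mice, without normalization. The submitters' processing notes name FastQC and Bowtie2. C3H columns were assigned by the mouse number in the labels. The 53 F2 columns carry names that give neither mouse nor month, so they were read as one group and only described.

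From the deposited counts, edgeR 4.0.16 in R 4.3.3 compared the groups with the spike-in mean as library scale (quasi-likelihood test, Benjamini-Hochberg over all 1452 miRNAs tested, minimum 10 UMIs in 5 mice, threshold 0.05). The standard error is the log2 fold change over the square root of F. Levels are log2 of UMIs plus a pseudocount of 1 over the scale, on which fold changes of low miRNAs are understated. Single values were compared by exact permutation over 1287 splits (Python 3.11.15, numpy 2.4.6, scipy 1.17.1, pandas 2.3.3). Of 200 simulated 8-fold changes among 1452 miRNAs in this comparison, 61% were recovered and 2.4% of calls were false.

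The miRNAs named are the 7 listed, the opposite strands, seed relatives, gene neighbours and cell type lists, and the 5 miRNAs most like miR-16-5p with the 7 left out. Members, lists and tests were chosen with earlier results of these data known. miR-200c-3p was named after its values were seen, and the ratios with other strands and neighbours were added after the data were examined. Sequences are RefSeq's, and gene positions GENCODE M21's. Alternatives were TMM factors, each spike-in alone, total UMIs, DESeq2 1.42.0, limma 3.58.1, other filters, the replicate block, leaving out each mouse, and similar pairs summed. Each C3H library is a mouse of its own by its label, and the errors given are the spread between these libraries, counting error included.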

Additional observations from a re-analysis of the deposited data

How the results depend on the processing

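None of the 7 miRNAs passed an adjusted p of 0.05 under any alternative, and 262 of the fold changes of members and opposite strands kept their sign and their side of the threshold, while 35 turned sign without passing. The number of miRNAs called, 109, became 175 on total UMIs without miR-122-5p, 222 with DESeq2's own size factors (173 higher, 49 lower), 183 with DESeq2 and spike-ins, 54 with limma, and 44 to 157 on leaving out each mouse. The lowest counts came from leaving out a non-HCC mouse (44, 47, 47 and 53 for mice 1 to 4) or HCC mouse 2 (65). The split was 123 higher and 32 lower on total UMIs.

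The log2 fold change of miR-195a-5p turned to -0.63 with TMM factors, -0.00063 with UniSP4 alone, -0.56 on total UMIs, -0.26 without miR-122-5p in the total, -0.58 with DESeq2's own factors, -0.31 with limma, -0.0051 with similar pairs summed and -0.58 with pairs summed and TMM factors. That of miR-322-5p turned to -0.27 with TMM factors, -0.16 on total UMIs, -0.23 with DESeq2's own factors and -0.25 with pairs summed and TMM factors. Leaving out each mouse gave -0.43 to 0.13 for miR-16-5p, -0.999 to 0.14 for miR-15a-5p, -0.95 to 0.24 for miR-15b-5p, -0.71 to 0.19 for miR-15b-3p, -0.27 to 0.35 for miR-195a-5p, -0.19 to 1.01 for miR-322-5p, 0.46 to 1.21 for miR-322-3p (lowest without HCC mouse 4), -0.51 to 0.45 for miR-15a-3p and -0.86 to 0.34 for miR-16-1-3p. For the log2 ratios it gave 0.22 to 0.53 for miR-16-5p over miR-15a-5p and 0.17 to 0.48 over miR-15b-5p (both lowest without non-HCC mouse 5), -0.061 to 0.042 for miR-15a-5p over miR-15b-5p, -0.14 to 0.017 for miR-15b-5p over miR-15b-3p and -1.03 to -0.61 for miR-16-5p over miR-322-5p. The number of ratios called, 1, was 1 to 2 on leaving out each mouse and 0 with similar pairs summed. The share of miR-16-5p differed by -11.8 to -8.05 points on leaving out each mouse and by -6.22 points without miR-122-5p. The r of miR-322-3p with miR-16-5p was -0.15 with TMM factors. The causes were not tested. The lowest count of a member was 114 UMIs, and other depths were not tested.

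Replicate numbers are shared by HCC and non-HCC mice 1 to 5, but the correlations of deviations were 0.249, 0.377, 0.0986, -0.024 and 0.460, and 3 of 10 samples correlated best with their own number, so the numbers were not taken as pairs. With the replicate block 145 miRNAs were called, all higher, and 0 of the 7 members. miR-15a-3p then turned to 0.11, and with the block and TMM factors miR-195a-5p to -0.58 and miR-322-5p to -0.069.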
